A study of Mus musculus with 17 samples.

Results

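CC chemokines are small secreted proteins that direct leukocytes to a tissue, and the 9 genes described here encode those best known for acting on monocytes, macrophages and eosinophils: Ccl2, Ccl3, Ccl4, Ccl6, Ccl7, Ccl8, Ccl9, Ccl11 and Ccl12. They were taken by gene symbol, as 9 of the 12736 symbols in the count tables, and all 9 were among the 11123 entries tested. The set was chosen with earlier results of these data known, so its share of calls is not independent of them. mRNA sequencing was performed on inferior vena cava of a donor mouse that had been inserted into the carotid artery of a host and perfused for 1 h (4 libraries) or 6 h (5 libraries), and on ungrafted vena cava as control (4 libraries). All animals were male C57BL/6J mice aged 10 to 12 weeks, with no transgene and no drug compared between groups. Heparin and anaesthesia belonged to the surgery, and the grafts carried arterial flow and the blood of another animal, so that excision, transfer, pressure and host blood cannot be told apart as sources of a difference from control. Grafts perfused for 24 h were not analysed here. The labels do not say that each library came from a separate animal, so p-values measure the spread between these libraries.

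CC chemokines bind receptors on leukocytes. Ccl2, Ccl7 and, in the mouse, Ccl12 act on Ccr2, the receptor that brings inflammatory monocytes out of the bone marrow and into injured vessel wall. Ccl3 acts on Ccr1, Ccl4 attracts macrophages and lymphocytes, Ccl6 and Ccl9 are rodent ligands of Ccr1, Ccl11 (eotaxin) is the main Ccr3 ligand of eosinophils, and mouse Ccl8 acts on Ccr8. Endothelium, smooth muscle, fibroblasts, macrophages and neutrophils can all produce some of them, and in whole tissue a change in the number of producing cells and a change in RNA per cell cannot be told apart.

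The 9 genes lie in 2 clusters on chromosome 11. In mm9 coordinates, the first cluster (chr11:81849073-81930301) holds Ccl2, Ccl7, Ccl11, Ccl12 and Ccl8 in this order on the plus strand. Ccl2 spans chr11:81849073-81850955 and Ccl7 spans chr11:81859214-81861027, with 8259 bases between them. Ccl11 (chr11:81871325-81876457), Ccl12 (chr11:81915347-81916902) and Ccl8 (chr11:81928687-81930301) follow. The second cluster (chr11:83386421-83478185) holds Ccl9 (chr11:83386421-83392138), Ccl6 (chr11:83401384-83406589) and Ccl3 (chr11:83461346-83462857) on the minus strand and Ccl4 (chr11:83476086-83478185) on the plus strand. Reads were counted without regard to strand, and the annotated genes Gm17268 and E230016K23Rik overlap the spans of Ccl2 and Ccl6 without sharing an exon with them. Among coding transcripts, none of the 9 shared a stretch of 50 bases, the length of a read, with another of the 9. For Ccl9, 48 of 2989 such stretches also occurred in other genes.

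Neighbours in these clusters behaved differently in the grafts, so the upstream sequence of 3 of them is shown: Ccl3, which rose steeply at both times, and the adjacent pair Ccl12 and Ccl8, neither of which passed the test. The sequences are RefSeq's, build GRCm38.p6, 250 bases up to the annotated start. RefSeq promoters were at hand for 5 of the 9 genes (Ccl3, Ccl6, Ccl8, Ccl9 and Ccl12) and not for Ccl2, Ccl4, Ccl7 and Ccl11. Capitals mark the letters TATAAA, the core of a TATA box.
Ccl3, chr11:83649379-83649628, minus strand: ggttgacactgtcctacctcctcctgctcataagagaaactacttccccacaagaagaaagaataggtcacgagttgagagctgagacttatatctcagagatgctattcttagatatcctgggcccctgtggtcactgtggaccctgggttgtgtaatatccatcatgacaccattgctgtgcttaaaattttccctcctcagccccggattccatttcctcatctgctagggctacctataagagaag
Ccl12, chr11:82101595-82101844, plus strand: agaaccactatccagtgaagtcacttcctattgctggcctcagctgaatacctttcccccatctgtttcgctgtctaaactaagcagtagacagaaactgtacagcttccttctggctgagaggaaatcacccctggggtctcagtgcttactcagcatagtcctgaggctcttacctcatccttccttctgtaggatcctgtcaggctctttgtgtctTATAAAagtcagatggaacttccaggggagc
Ccl8, chr11:82114935-82115184, plus strand: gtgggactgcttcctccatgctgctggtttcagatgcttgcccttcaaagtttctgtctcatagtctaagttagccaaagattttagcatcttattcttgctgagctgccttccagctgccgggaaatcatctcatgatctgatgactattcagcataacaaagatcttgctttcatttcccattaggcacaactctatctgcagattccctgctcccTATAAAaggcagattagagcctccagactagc
The window searched on both strands ran from 250 bases before to 50 bases after the start, for TATAAA, for TGANTCA (a form of the AP-1 site) and for GGG followed by 5 bases of any kind and CC (a loose form of the NF-kappaB site). TATAAA began 31 bases before the start of Ccl12 and 32 bases before that of Ccl8, and it occurred in 13.6% of 32851 mouse promoters. None of the 3 motifs, as spelled here, was in the windows of Ccl3 or Ccl6. Other spellings of these sites were not searched, and a relation of the motifs to RNA levels was not tested. In the window of Ccl9, TATAAA began 92 bases before the start, read in the direction of the gene. Read in the opposite direction, it lay 94 bases before the start, overlapping the first match, and 224 bases before the start. The same window held TGANTCA at 53 bases and the NF-kappaB form at 35 bases before the start, which occurred in 7.81% and 50.8% of all promoters.

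The libraries held 7897624 to 8359934 counts at 1 h, 10171059 to 11816124 at 6 h and 8569614 to 11029712 in control. Levels are given as CPM, the share of a gene in the TMM-scaled library total on edgeR's usual scale, and fold changes, standard errors (SE) and adjusted p-values come from edgeR's quasi-likelihood test in 1 fit of all 13 libraries. Within a group, the correlation of log2 CPM between libraries was 0.68 to 0.772 at 1 h, 0.721 to 0.797 at 6 h and 0.717 to 0.755 in control. Library 2 at 1 h and library 5 at 6 h lay away from their groups in a multidimensional scaling of all libraries. Without these 2 libraries, 4 of the 9 chemokines were called at 1 h, 7 at 6 h and 5 between the times, the same counts as with them. The sample titles carry the number 7 after the flow cell name for the 6 h and control libraries and the number 8 for the 1 h libraries, so this number and the 1 h time cannot be told apart.

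At 1 h, Ccl2, Ccl7, Ccl3 and Ccl4 rose, 4 of the 9 genes, each by over 4 on the log2 scale. At 6 h these 4 genes were higher again and Ccl11, Ccl6 and Ccl9 had risen too, so that 7 of the 9 passed the test against control. Ccl12 and Ccl8 passed it at neither time, and 0 of the 9 fell in any comparison. Of all 11123 entries, 1.12% were called higher at 1 h, 5.58% at 6 h and 2.63% in 6 h against 1 h grafts, where 5 of the 9 chemokines (Ccl2, Ccl3, Ccl4, Ccl7 and Ccl11) were higher. Lower calls made up 0.00899%, 1.59% and 1.02% of all entries in these 3 comparisons. At an unadjusted p under 0.05, edgeR had 6 members at 1 h, 8 at 6 h and 7 between the times, all of them higher, beside 5.53%, 12.2% and 9.11% of all entries that were higher at this threshold. The median log2 fold change of the 9 genes was 1.75 at 1 h, 2.69 at 6 h and 2.16 between the times, beside medians of -0.04, -0.05 and 0.0 over all entries. DESeq2 called 5 members at 1 h, 7 at 6 h and 5 between the times, all higher. Its own background was larger than edgeR's, with 286, 1031 and 536 of the 11123 entries called higher in these comparisons. The edgeR counterparts were 125, 621 and 293. Together the 9 transcripts took 0.287% to 0.441% of all counts in 1 h grafts, 1.81% to 3.6% in 6 h grafts and 0.0782% to 0.142% in control.

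**Figure D1:**
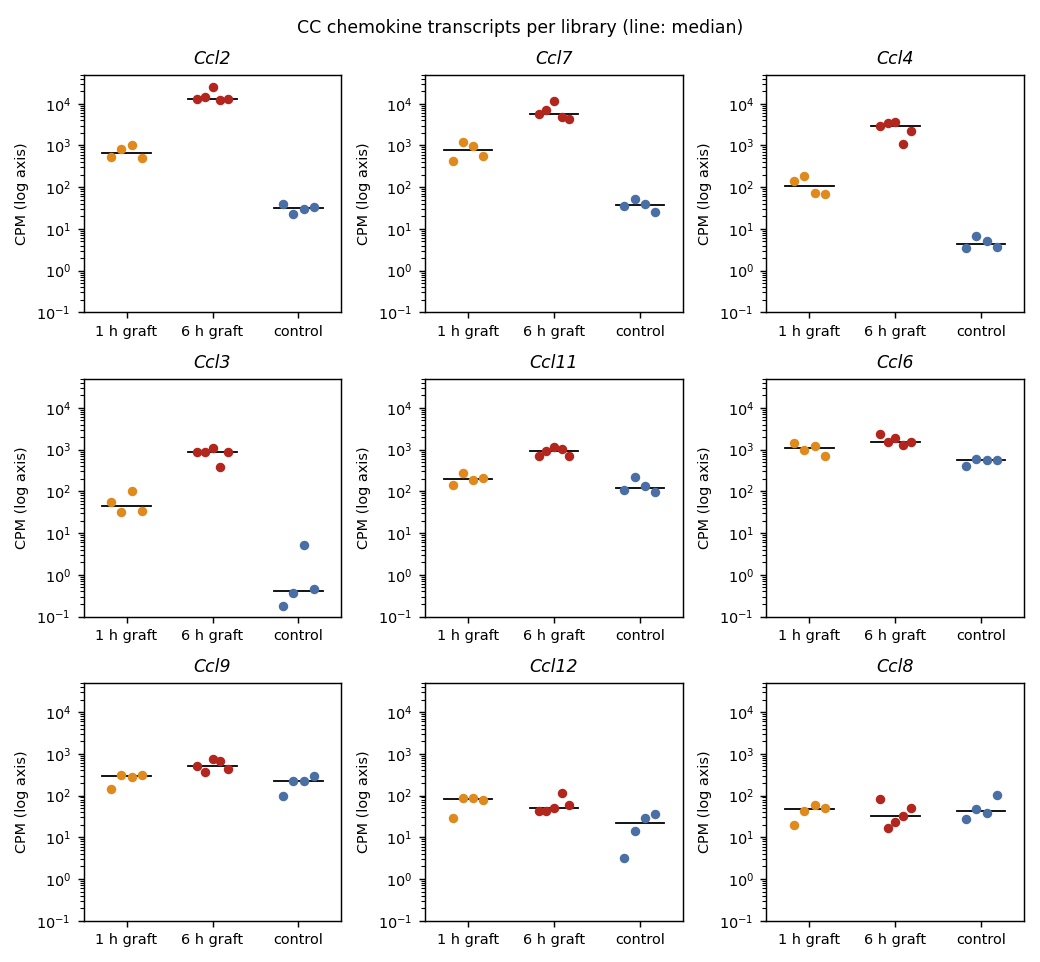
CPM (log axis) of the 9 CC chemokines in each library of 1 h grafts (n = 4), 6 h grafts (n = 5) and control vena cava (n = 4), with a line at the group median. Ccl2, Ccl7, Ccl4 and Ccl3 form 3 separate steps with 6 h highest and control lowest, while the groups overlap for Ccl8.

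Ccl2 (MCP-1) is the main monocyte attractant of injured vessel wall. Its level was 519, 800.4, 1018 and 505 CPM in the 1 h grafts. At 6 h it was 12699, 14307, 24945, 12503 and 13248 CPM, and in control it was 40.1, 22.9, 29.9 and 33.5 CPM. No library overlapped with another group, and library 3 at 6 h was far above the other 4. Ccl2 rose 22.5-fold at 1 h (log2 fold change 4.49, SE 0.32, adjusted p = 5.05e-07) and 491-fold at 6 h (log2 fold change 8.94, SE 0.39, adjusted p = 1e-09). Between the times it was 21.9-fold higher at 6 h (log2 fold change 4.45, SE 0.32, adjusted p = 1.31e-06).

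Ccl7 (MCP-3), the neighbour of Ccl2, attracts monocytes through the same receptor. It had 433, 1188, 991 and 571 CPM in 1 h grafts. The 6 h grafts had 5758, 6899, 11816, 4790 and 4359 CPM, and the controls had 35.0, 52.4, 39.8 and 24.8 CPM. The 3 groups were again separate, and the same library 3 was highest at 6 h. The log2 fold change was 4.39 at 1 h (SE 0.41, adjusted p = 1.43e-05), 7.47 at 6 h (SE 0.47, adjusted p = 6.03e-08) and 3.08 for 6 h against 1 h (SE 0.38, adjusted p = 0.000247). The ratio of Ccl2 to Ccl7 counts within a library, not corrected for length, was 2.21, 2.07, 2.11, 2.61 and 3.04 at 6 h, against 1.14, 0.438, 0.752 and 1.35 in control. At 1 h the ratio was 1.2, 0.674, 1.03 and 0.884, below all 6 h libraries. On the log2 scale the difference in the ratio was 1.49 for 6 h against control and 1.36 for 6 h against 1 h (exact 2-sided permutation test, p = 0.0159 each, the smallest that 5 against 4 libraries allow). Adjusted over 12 such comparisons both p-values were 0.0952, above the threshold. The gene pairs were chosen after their values had been seen.

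Ccl4 (MIP-1 beta), a product of macrophages, neutrophils and lymphocytes, had 209 counts in all over the 4 ungrafted veins. It had 141, 181, 71.9 and 67.3 CPM in 1 h grafts. At 6 h it had 2851, 3391, 3709, 1070 and 2260 CPM, against 3.49, 6.93, 5.25 and 3.65 CPM in control. No groups overlapped, although library 4 at 6 h lay well below its group. Ccl4 rose 23.9-fold at 1 h (log2 fold change 4.58, SE 0.45, adjusted p = 2.5e-05) and 549-fold at 6 h (log2 fold change 9.1, SE 0.54, adjusted p = 3.41e-08). The 6 h grafts exceeded the 1 h grafts by 4.52 on the log2 scale (SE 0.44, adjusted p = 3.68e-05).

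Ccl3 (MIP-1 alpha), which acts on Ccr1, had the lowest level per kb of the 9 genes in control. Its level was 56.3, 31.3, 100.3 and 33.0 CPM in 1 h grafts. In 6 h grafts it was 873, 893, 1108, 374 and 884 CPM, and in control it was 0.183, 0.375, 5.25 and 0.456 CPM, from 61 counts in all. Library 3 of the controls held most of these counts, and library 4 at 6 h was the lowest of its group, as for Ccl4. The log2 fold change was 5.17 at 1 h (SE 0.83, adjusted p = 0.00251), 9.07 at 6 h (SE 0.97, adjusted p = 1.82e-05) and 3.9 for 6 h against 1 h (SE 0.75, adjusted p = 0.0073). Without library 3 of the controls the log2 fold changes were 7.28 at 1 h and 11.18 at 6 h. In a fit of only the 1 h and control libraries, the 1 h difference of 5.15 no longer passed the test (adjusted p = 0.11).

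**Figure D2:**
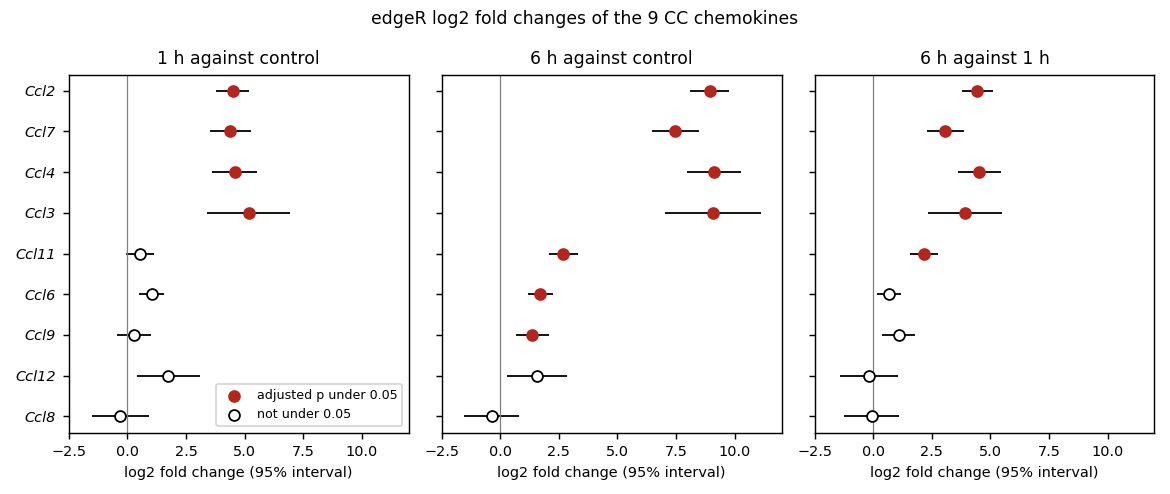
edgeR log2 fold changes of the 9 CC chemokines with 95% intervals for 1 h against control, 6 h against control and 6 h against 1 h, red where the adjusted p was under 0.05. Ccl2, Ccl7, Ccl4 and Ccl3 lie between 4.39 and 5.17 at 1 h and between 7.47 and 9.1 at 6 h, and the intervals of Ccl8 include 0 in all 3 panels.

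Ccl11 followed another course, with its rise between 1 h and 6 h. Eotaxin recruits eosinophils through Ccr3 and is made by fibroblasts, smooth muscle and other stromal cells. Its level was 143, 272, 191 and 210.3 CPM in 1 h grafts. The 6 h grafts had 706, 933, 1170, 1018 and 721 CPM, against 105, 221, 136 and 99.2 CPM in control. All 6 h libraries lay above all others, while 1 h grafts and controls overlapped. At 1 h the log2 fold change was 0.54 (95% interval -0.07 to 1.14, adjusted p = 0.729). At 6 h Ccl11 rose 6.47-fold over control (log2 fold change 2.69, SE 0.29, adjusted p = 2.27e-05) and was 4.46-fold above 1 h (log2 fold change 2.16, SE 0.29, adjusted p = 0.000451).

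Ccl6, a rodent chemokine found in resting macrophages and other myeloid cells, had the highest level per kb of transcript among the 9 genes in control vein. It had 1463, 990.4, 1216 and 711 CPM at 1 h. In 6 h grafts it had 2404, 1521, 1934, 1290 and 1556 CPM, against 402, 605, 564 and 559 CPM in control. Every graft at either time exceeded every control. At 1 h the log2 fold change of 1.04 missed the threshold (SE 0.25, adjusted p = 0.0689), and it passed in DESeq2 (adjusted p = 0.00791) and in edgeR without library 4 at 1 h (1.24, adjusted p = 0.0178). At 6 h Ccl6 rose 3.27-fold (log2 fold change 1.71, SE 0.25, adjusted p = 0.000332). The 6 h and 1 h grafts overlapped, with a log2 difference of 0.67 (95% interval 0.16 to 1.18, adjusted p = 0.167).

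Ccl9 (MIP-1 gamma), the neighbour of Ccl6 and also a Ccr1 ligand in rodents, had 147, 304, 285 and 304 CPM in 1 h grafts. It had 503, 370.5, 762, 677 and 433 CPM in 6 h grafts, against 96.0, 224, 228 and 300 CPM in control. The 6 h libraries lay above all others, and the 1 h libraries overlapped with the controls, the lowest library of each lying well below the rest. At 6 h Ccl9 rose 2.59-fold (log2 fold change 1.37, SE 0.33, adjusted p = 0.0189). This call was lost with library totals in place of TMM (0.94, adjusted p = 0.0945) and without library 1 of the controls (1.13, adjusted p = 0.0521). The log2 fold change was 0.3 at 1 h (95% interval -0.43 to 1.02, adjusted p = 0.999) and 1.08 for 6 h against 1 h (95% interval 0.37 to 1.78, adjusted p = 0.0976).

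Ccl12 (MCP-5), a mouse ligand of Ccr2, was higher in most grafts but varied too much to pass the test. It had 28.5, 86.4, 87.8 and 77.5 CPM in 1 h grafts. The 6 h grafts had 41.6, 42.8, 50.1, 114 and 59.0 CPM, against 3.12, 13.9, 29.8 and 36.6 CPM in control. All 6 h grafts exceeded all controls, while 1 of the 4 libraries at 1 h lay within the control range. The log2 fold change was 1.75 at 1 h (95% interval 0.4 to 3.1, adjusted p = 0.361) and 1.56 at 6 h (95% interval 0.27 to 2.86, adjusted p = 0.148).

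Ccl8 (MCP-2), the last gene of its cluster, showed no difference that these libraries could resolve. Its level was 19.2, 43.5, 60.3 and 49.3 CPM at 1 h. It was 81.6, 16.7, 23.1, 32.9 and 51.7 CPM at 6 h, against 27.2, 46.4, 38.4 and 101 CPM in control. The 3 groups overlapped throughout, and library 4 of the controls was the highest of all. The log2 fold change was -0.3 at 1 h (95% interval -1.53 to 0.92, adjusted p = 0.999) and -0.37 at 6 h (95% interval -1.53 to 0.79, adjusted p = 0.79). Both values turned positive without library 4 of the controls, at 0.25 and 0.15. An increase of the size seen for Ccl2, Ccl7, Ccl3 or Ccl4 lies outside these intervals.

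Counting libraries in place of fold changes, 5 of the 9 genes had every 1 h library above every control (3.55% of all entries), 8 had every 6 h library above every control (9.23%) and 6 had every 6 h library above every 1 h library (6.49%). Ccl6 at 1 h and Ccl12 at 6 h were separate in this way without passing the test, as was Ccl9 between the times.

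The order of the 9 genes by mean CPM per kb of exon also changed. In 1 h grafts Ccl7 led at 994 ± 441 CPM per kb, followed by Ccl2 at 624 ± 216 and Ccl6 at 610 ± 179 CPM per kb (SD, n = 4). The libraries of these 3 genes overlapped, and those of the next, Ccl11 at 189 ± 49.1 CPM per kb, lay below them. In 6 h grafts Ccl2 led at 13656 ± 4661 CPM per kb, then Ccl7 at 8395 ± 3757, Ccl4 at 4024 ± 1582 and Ccl3 at 1079 ± 354 CPM per kb (SD, n = 5). Ccl7 overlapped with Ccl2 and, narrowly, with Ccl4, and Ccl3 lay below Ccl4 in every library while overlapping with Ccl6 at 970 ± 243 CPM per kb. In control Ccl6 led at 297 ± 49.9 CPM per kb (SD, n = 4), above Ccl11 at 129.8 ± 51.9 without overlap, and Ccl2, Ccl4 and Ccl3 came last at 27.8 ± 6.29, 7.32 ± 2.44 and 2.05 ± 3.21 CPM per kb.

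Of the other neighbouring pairs, none passed the test of its count ratio. Ccl4 to Ccl3 counts within a library stood at 3.27, 3.79, 3.35, 2.86 and 2.56 in 6 h grafts, against 15.4, 16.6, 1.0 and 7.46 in control, where the Ccl3 counts were few. Ccl12 to Ccl8 counts stood at 1.48, 1.98, 1.46 and 1.57 in 1 h grafts and at 0.116, 0.299, 0.777 and 0.363 in control. At 6 h this ratio was 0.51, 2.56, 2.16, 3.48 and 1.14. The log2 difference for Ccl12 to Ccl8 was 2.35 at 1 h (exact permutation test, p = 0.0286, adjusted p = 0.0952) and 2.37 at 6 h (p = 0.0317, adjusted p = 0.0952, same test), so that this pair leaned toward Ccl12 in the grafts without passing the adjustment. The Ccl6 to Ccl9 ratio differed by 0.66 at 1 h and 0.26 at 6 h on the log2 scale (exact permutation test, adjusted p = 0.49 and 0.59).

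**Figure D3:**
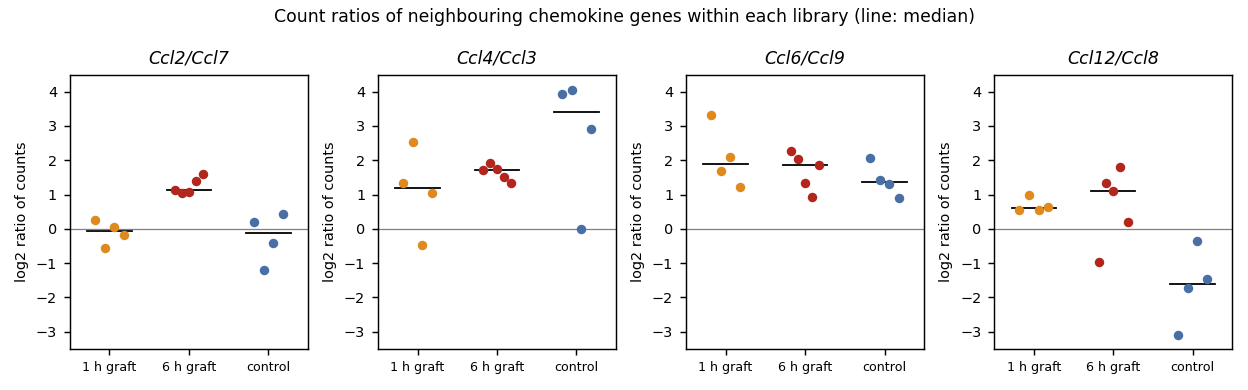
log2 ratio of counts of 4 pairs of neighbouring chemokine genes within each library of 1 h grafts, 6 h grafts and control, with a line at the group median. The Ccl2/Ccl7 ratios of the 5 libraries at 6 h lie from 1.05 to 1.6, above all other libraries, and the Ccl4/Ccl3 ratios are closest together at 6 h.

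The distance between expression patterns was measured as the root mean square difference of mean-centred log2 CPM over the 13 libraries, among 8849 genes with a mean of at least 50 counts. The pattern closest to Ccl2 was that of Ccl4 (0.65), followed by Ccl7 (0.81), Ptx3 (0.81), Ccl3 (1.09) and Cxcl2 (1.09). Closest to Ccl11 were Spry4 (0.4), Atf4 (0.43), Clic4 (0.43), Fhl3 (0.44) and 1500012F01Rik (0.45), and closest to Ccl6 were Capn2 (0.3), Tpt1 (0.34), Ninj1 (0.35), Eif1 (0.38) and Arpc3 (0.38). Among the 9 genes, the closest pairs were Ccl6 with Ccl9 (0.63) and Ccl2 with Ccl4. Ccl2 and its cluster neighbour Ccl8 lay 3.95 apart. All points share the same libraries, and a gene with small changes lies close to many others.

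Among the receptors of these ligands, Ccr1 rose and Ccr2 did not pass the test. Of 11 CC chemokine receptor genes, 7 were in the tables and 5 were tested. Ccr1, the receptor of Ccl3, Ccl6, Ccl7 and Ccl9, had 328, 155, 388 and 22.1 CPM in 1 h grafts. It had 1356, 592, 956, 574 and 1127 CPM in 6 h grafts, against 32.4, 3.75, 29.7 and 70.8 CPM in control. All 6 h libraries lay above all others, and library 4 at 1 h lay among the controls. Ccr1 rose 26.9-fold at 6 h (log2 fold change 4.75, SE 0.83, adjusted p = 0.00172), the only receptor of the 5 that edgeR called there, while DESeq2 called 2, Ccr1 and Ccr8. At 1 h, and likewise in 6 h against 1 h grafts, edgeR called 0 of the 5, and Ccr1 was the 1 receptor with an unadjusted p under 0.05 and the 1 that DESeq2 called. Ccr2 averaged 64.6 ± 46.7 CPM at 1 h, 53.8 ± 53.7 CPM at 6 h and 87.7 ± 41.9 CPM in control, and its 6 h value differed from control by -0.71 on the log2 scale (95% interval -2.07 to 0.65, adjusted p = 0.614). Ccr7, a receptor of dendritic cells and lymphocytes, averaged 41.4 ± 43.6, 97.2 ± 98.3 and 32.8 ± 40.5 CPM in 1 h grafts, 6 h grafts and control. Ccr8, the receptor of mouse Ccl8, had 478 counts over the 5 libraries at 6 h and 1 count over the 4 controls (adjusted p = 0.0528 in edgeR and 0.00136 in DESeq2). It had 21 counts over the 1 h libraries. Ccr8 would not have passed the filter without its 6 h libraries, so being tested already depended on its level there. Ccr3, the receptor of Ccl11, was not tested, with 20, 14 and 154 counts in all over 1 h, 6 h and control libraries.

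**Figure D4:**
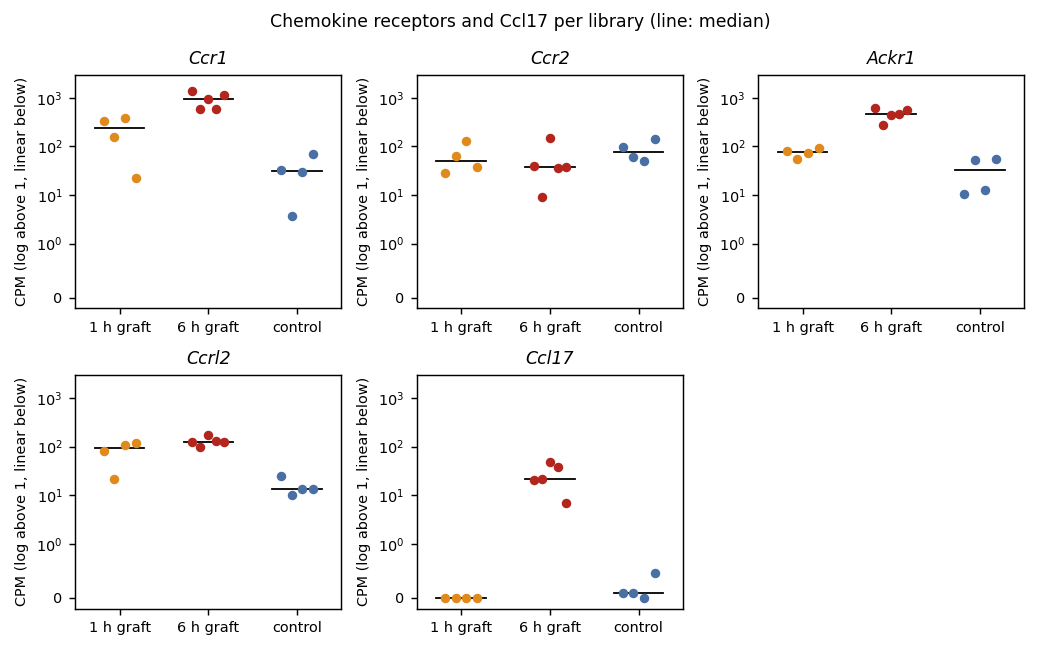
CPM of Ccr1, Ccr2, Ackr1, Ccrl2 and Ccl17 in each library of 1 h grafts, 6 h grafts and control (log axis above 1, linear below), with a line at the group median. Ccr1, Ackr1 and Ccl17 are highest in all 5 libraries at 6 h, and the Ccr2 values of the 3 groups overlap.

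Of 5 receptors that bind chemokines without classical signalling, all tested, Ccrl2 rose at 1 h and Ackr1 and Ccrl2 at 6 h. Ackr1, which carries CC chemokines across venular endothelium, had 610.1, 278, 438, 472 and 567 CPM in 6 h grafts, against 10.7, 51.6, 12.9 and 55.3 CPM in control. The 1 h grafts, at 78.5, 54.9, 73.3 and 90.5 CPM, stood between them and overlapped slightly with control. Ackr1 was 14.5-fold higher at 6 h than in control (log2 fold change 3.86, SE 0.5, adjusted p = 0.000106) and 6.37-fold higher than at 1 h (log2 fold change 2.67, SE 0.47, adjusted p = 0.00402). Ccrl2, which presents the leukocyte attractant chemerin, rose by 2.39 at 1 h (SE 0.47, adjusted p = 0.0161) and by 3.04 at 6 h (SE 0.47, adjusted p = 0.000638) on the log2 scale. The 1 h call on Ccrl2 was lost in 4 of 17 alternatives (adjusted p up to 0.136), among them those without library 2, 3 or 4 of the controls. Ackr2, a scavenger of inflammatory CC chemokines, averaged 43.7 ± 55.0 CPM at 1 h, 14.1 ± 14.1 CPM at 6 h and 11.2 ± 13.9 CPM in control and was called in no comparison.

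Of 15 other CC chemokine genes, 5 were in the tables and 4 were tested. Ccl17, a Ccr4 ligand of dendritic cells, had 20.7, 21.5, 49.5, 37.7 and 6.93 CPM in 6 h grafts and was called against control (adjusted p = 0.0086) and against 1 h (adjusted p = 0.00421). It had 1246 counts over the 6 h libraries, against 0 over the 1 h libraries and 8 over the controls. Ccl17 passed the filter through its 6 h libraries alone, so being tested already depended on its level there. Set against a floor of 3 counts over the group, it was at least 312-fold higher at 6 h than at 1 h. Ccl5, a lymphocyte product, averaged 92.3 ± 96.2 CPM at 1 h, 188 ± 104 CPM at 6 h and 125 ± 65.2 CPM in control. Ccl24 (eotaxin-2), a further Ccr3 ligand, averaged 54.5 ± 31.8, 64.8 ± 20.6 and 31.7 ± 8.41 CPM in 1 h grafts, 6 h grafts and control. Neither Ccl5 nor Ccl24 was called in any comparison.

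Of 13 cytokine genes known to induce CC chemokines, 6 were tested, with 2 higher at 1 h, 4 higher at 6 h and 2 higher in 6 h against 1 h grafts. DESeq2 called all 6 higher at 6 h, with Tnf (adjusted p = 0.0318) and Il1a (adjusted p = 0.00589) beyond the edgeR calls. Tnf averaged 30.9 ± 22.7 CPM at 6 h, against 1.54 ± 3.08 CPM in control. Il1a, with 45 counts at 1 h and 3 in control, would not have passed the filter without its 6 h libraries. Il6 averaged 506 ± 133 CPM at 1 h, 5761 ± 1159 CPM at 6 h and 1.99 ± 0.591 CPM in control, a log2 fold change of 7.99 at 1 h (SE 0.35, adjusted p = 2.52e-09) and 11.5 at 6 h (SE 0.39, adjusted p = 6.67e-11). Il1b averaged 944 ± 547, 1515 ± 913 and 2.97 ± 4.61 CPM in 1 h grafts, 6 h grafts and control and was called at both times (adjusted p = 0.000777 at 1 h and 0.000136 at 6 h). Osm, a myeloid cytokine that acts on stromal cells, reached 214 ± 134 CPM at 6 h, against 2.54 ± 4.94 CPM in control (adjusted p = 0.00792). Library 4 of the controls held 130 of the 151 Il1b counts and 131 of the 133 Osm counts of that group, and it was also the control with the highest Ccl8, Ccl9, Ccl12 and Ccr1. Tslp, a cytokine of epithelium and stroma, has 2 entries in the tables. The tested one had 219 counts at 6 h and 0 in the other groups, at least 69.8-fold higher than control against the same floor for this entry (adjusted p = 0.0171). It too passed the filter through the 6 h libraries alone. The other entry had 11 counts at 1 h, 25 at 6 h and 29 in control, so the bound does not hold for the symbol as a whole. With both entries summed, the log2 fold change of Tslp was 3.02 against control (adjusted p = 0.295) and 4.03 against 1 h (adjusted p = 0.224), and neither passed the test. The call of the tested entry against 1 h was lost in 11 of 17 alternatives.

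Of 12 feedback genes of the NF-kappaB pathway and of chemokine mRNA decay, 9 were tested, with 3 higher at 1 h, 5 higher at 6 h and, in 6 h against 1 h grafts, 1 higher and 1 lower. Zfp36 (tristetraprolin), which binds AU-rich elements and speeds the decay of cytokine mRNA, averaged 6188 ± 1356 CPM at 1 h, 2523 ± 246 CPM at 6 h and 218 ± 104 CPM in control. Over control, Zfp36 rose 28.4-fold at 1 h (adjusted p = 2.77e-07) and 11.6-fold at 6 h (adjusted p = 2.02e-06). In 6 h against 1 h grafts Zfp36 fell by 1.29 on the log2 scale (SE 0.27, adjusted p = 0.0116). A relation between Zfp36 and the chemokine levels was not tested. Nfkbia, the inhibitor of NF-kappaB, rose by 2.44 at 1 h (SE 0.26, adjusted p = 5.4e-05) and by 3.14 at 6 h (SE 0.26, adjusted p = 1.39e-06) on the log2 scale. Nfkb1 rose 5.6-fold (adjusted p = 0.00102) and Zc3h12a, an RNase that cuts inflammatory mRNA, 36.3-fold (adjusted p = 0.00211) at 6 h. Zfp36l1, a relative of Zfp36, rose 2.75-fold at 1 h (adjusted p = 0.00607) and 2.39-fold at 6 h (adjusted p = 0.0043).

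Cell type markers moved with the chemokines in part. Of 12 tested markers of monocytes and macrophages, Cd14 alone was called, higher at 1 h (log2 fold change 2.88, SE 0.37, adjusted p = 0.000365), at 6 h (6.11, SE 0.43, adjusted p = 2.05e-07) and in 6 h against 1 h grafts (3.23, SE 0.37, adjusted p = 0.000143). Lyz2 (lysozyme) averaged 1661 ± 572 CPM at 1 h, 1191 ± 432 CPM at 6 h and 1763 ± 666 CPM in control, and Lyve1, a marker of resident macrophages and lymphatic vessels, averaged 163 ± 65.6, 151 ± 49.2 and 144 ± 60.4 CPM. The summed level of this list was 2305 to 3852 CPM at 1 h, 4764 to 13418 CPM at 6 h and 2054 to 3713 CPM in control, and Cd14 made up most of it at 6 h. Of 8 tested neutrophil markers, 7 rose at 1 h and 7 at 6 h, at both times S100a8, S100a9, Cxcr2, Retnlg, Mmp8, Trem1 and Fpr1. Their log2 fold changes ran from 5.16 (Cxcr2) to 9.02 (S100a8) at 1 h and from 6.32 (Cxcr2) to 11.22 (Trem1) at 6 h. S100a8, a calcium-binding protein abundant in neutrophils, averaged 2393 ± 1698 CPM at 1 h, 5905 ± 7064 CPM at 6 h and 4.59 ± 3.96 CPM in control. The 1 h call on Cxcr2 was lost in a fit of only the 1 h and control libraries (adjusted p = 0.0846). Mmp8, a neutrophil collagenase, was also higher in 6 h against 1 h grafts (log2 fold change 2.64, adjusted p = 0.0327), a call lost in 8 of 18 alternatives, among them those without any 1 of the 1 h libraries or without library 3 or 5 at 6 h (1.67 without the last of these). Mmp9 was the tested marker not called, at 159.8 ± 113 CPM at 1 h, 47.0 ± 44.9 CPM at 6 h and 34.3 ± 18.3 CPM in control. In 6 h against 1 h grafts its log2 fold change was -1.76 (edgeR, adjusted p = 0.232). Csf3r was not tested, with 14 counts at 1 h, 6 at 6 h and 0 in control. The summed level of the neutrophil list was 1152 to 9732 CPM at 1 h and 2724 to 53799 CPM at 6 h, against 27.0 to 73.4 CPM in control. Library 4 was the lowest of its group in summed neutrophil markers at 1 h and at 6 h, and library 4 at 6 h was also lowest in Ccl3 and Ccl4. Library 4 at 1 h was lowest in Ccl4 too, with 141, 181, 71.9 and 67.3 CPM in libraries 1 to 4. The neutrophil sums of these libraries were 9732, 8172, 4039 and 1152 CPM. In other places the order differed. Library 5 at 6 h had the highest neutrophil sum, 53799 CPM, with Ccl4 at 2260 CPM and Ccl3 at 884 CPM. At 1 h Ccl3 was lowest in library 2 (31.3 CPM), where the neutrophil sum was 8172 CPM. Of 7 platelet markers, 3 rose at 1 h (Ppbp, Gp9 and Gp6) and 6 at 6 h (these 3 with Pf4, Itga2b and Treml1), with a summed level of 792 to 2634 CPM at 1 h, 1332 to 9698 CPM at 6 h and 208 to 343 CPM in control. Pf4, a chemokine of platelet granules, averaged 744 ± 382, 1638 ± 1479 and 219.8 ± 51.8 CPM in 1 h grafts, 6 h grafts and control. The 1 h call on Gp9 was lost in 10 of 17 alternatives (adjusted p up to 0.148), among them those without any 1 of the controls or without library 1, 2 or 4 at 1 h. The 1 h call on Ppbp was lost without the 2 libraries that lay away from their groups (adjusted p = 0.0509). The part of neutrophils and platelets in the chemokine levels was not tested.

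Markers of eosinophils, the cells that Ccl11 attracts, were low in all groups. Siglecf, Epx and Ear1 were not analysed here, and neither of the 2 tested markers, Prg2 and Il5ra, was called by edgeR or DESeq2 or had an unadjusted p under 0.05 in any comparison. The summed level of the 4 markers in the tables was 0.268 to 48.1 CPM at 1 h, 2.65 to 65.8 CPM at 6 h and 1.07 to 52.3 CPM in control. Ear6 had 4 counts over all 6 h libraries and 0 in the other groups. Mast cell markers were likewise not called in any comparison (0 of 4 by edgeR and DESeq2, 0 at an unadjusted p under 0.05), with 103 to 165 CPM at 1 h, 69.8 to 186 CPM at 6 h and 84.1 to 264 CPM in control, most of it from Tpsb2, Cma1 and Cpa3.

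The libraries held the markers of vessel wall that the tissue label implies. Endothelial markers summed to 545 to 1293 CPM at 1 h, 684 to 1056 CPM at 6 h and 325 to 438 CPM in control. Of the 8 markers edgeR called Cdh5 alone, higher at 6 h (log2 fold change 1.95, adjusted p = 0.0017). DESeq2 also called Cldn5 higher at 6 h (adjusted p = 0.0193) and Kdr lower in 6 h against 1 h grafts (adjusted p = 0.0365). At 6 h the log2 fold changes of the others ran from -0.97 (Tek) to 2.28 (Cldn5), with Kdr, Pecam1 and Emcn also below 0, and the median of the list was 0.16. Vwf, the most abundant of the list, averaged 487 ± 213, 349 ± 149.5 and 180.4 ± 48.5 CPM in 1 h grafts, 6 h grafts and control. It was not called by edgeR, while DESeq2 called it higher at 1 h (adjusted p = 0.0151). Fibroblast markers summed to 4174 to 5683 CPM at 1 h, 1991 to 2519 CPM at 6 h and 2570 to 4003 CPM in control, with Col1a1 called higher at 1 h (adjusted p = 0.0445, lost in 9 of 17 alternatives), Col3a1 lower at 6 h (adjusted p = 0.000979) and 3 of 7 (Col1a1, Col1a2 and Col3a1) lower in 6 h against 1 h grafts. Lum, a proteoglycan of fibroblasts and the third of the list in abundance, was not called by edgeR. DESeq2 called Lum lower at 6 h than in control (adjusted p = 0.00871). In 6 h against 1 h grafts DESeq2 called 6 of 7 fibroblast markers lower, Lum among them. Smooth muscle markers summed to 452 to 749.9 CPM at 1 h, 175 to 382 CPM at 6 h and 312 to 632 CPM in control. Of the 4 markers Acta2 (log2 fold change -1.42, adjusted p = 0.0327) and Tagln (-1.09, adjusted p = 0.0452) were lower in 6 h against 1 h grafts and Cnn1 was not called. These calls were lost in 6 (Acta2) and 9 (Tagln) of 18 alternatives, both among them without library 1 or 4 at 1 h and without library 1, 2 or 5 at 6 h. Against control at 6 h, edgeR called 0 of the 4, while DESeq2 called Acta2 lower (log2 fold change -1.18, adjusted p = 0.0185). Cardiac muscle transcripts, which belong to the muscle sleeve of the central veins, summed to 811 to 10146 CPM at 1 h, 233 to 12740 CPM at 6 h and 1468 to 8909 CPM in control, mostly from Myl7, Actc1 and Nppa, and overlapped between the groups. None was called by edgeR, and DESeq2 called Nppa lower at 6 h than in control (log2 fold change -3.53, adjusted p = 0.0407). In every 6 h library the summed fibroblast level was below that of every 1 h library. It was also below every control, though narrowly (highest 2519 CPM at 6 h, lowest 2570 CPM in control). Its relation to the Ccl11 level was not tested.

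**Figure D5:**
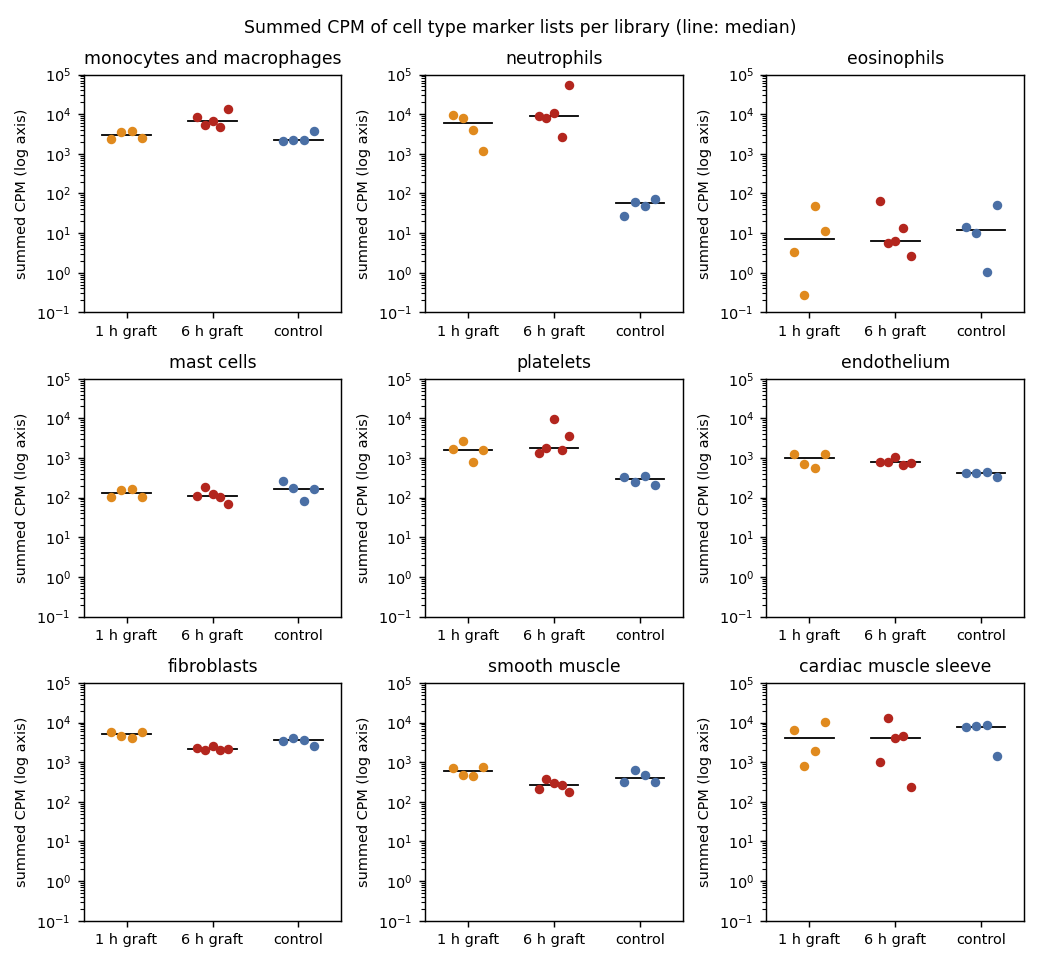
Summed CPM (log axis) of 9 lists of cell type markers in each library of 1 h grafts, 6 h grafts and control, with a line at the group median. Neutrophil and platelet markers of all grafts lie above all controls, eosinophil markers overlap between the 3 groups, and fibroblast markers are lowest at 6 h.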

How the data were processed

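mRNA was sequenced from vein grafts and control vena cava in 17 samples, of which the 13 libraries of 1 h, 6 h and control were used. The raw count tables hold 5 columns named 24 h for 4 samples with that label (30 such columns over all tables), so none was used. Columns could be tied to a group but not to a numbered sample, and library numbers are column numbers. The authors prepared libraries with the SMARTer Ultra Low Input kit, sequenced reads of 50 bases, ran FastQC 0.11.5, used gsnap for alignment to mm9 and counted them without strand by HTSeq 0.5.4p3. The deposited values are raw counts per RefSeq entry (13212 entries), with 12326 symbols in the files, 803 added from RefSeq and 83 missing. Each chemokine had 1 entry. The deposited tables of the authors' DESeq2 1.14.1 comparisons (mean, fold change, p-value) were left out. The test was edgeR 4.0.16 (R 4.3.3): filterByExpr (11123 entries), TMM, a robust quasi-likelihood fit by group and Benjamini-Hochberg adjustment over all entries, with a threshold of 0.05. The biological coefficient of variation was 1.03. Depth was 7897624 to 11816124 counts, and intervals of fold changes are at 95%. Alternatives were DESeq2 1.42.0, scaling by upper quartile or by library total, all entries unfiltered, at least 50 counts in 4 libraries, fits of 2 groups only, counts summed per symbol, a minimum log2 fold change of 1, leaving out each library, and leaving out the 2 libraries that stood apart. Count ratios used a prior count of 0.5, chosen after seeing the data, as were their alternatives of 2 and leaving out libraries. Exon lengths and overlaps came from GENCODE M1 on the mm9 assembly. All 9 genes are named, with every called member and the 3 most abundant of each list, and the 5 nearest patterns for Ccl2, Ccl11 and Ccl6. Members and lists were chosen with earlier results of these data known. A receptor of the list is not reported here.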

Additional observations from a re-analysis of the deposited data

Results flagged for a closer look

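In 27 groups examined (9 genes in 3 groups), a library lay far from the others of its group 4 times, where chance gives about 1 in 20. Ccl2 had 24945 CPM in library 3 at 6 h, and with any 1 library left out its log2 fold change at 6 h was 8.7 to 9.08. Ccl12 had 114 CPM in library 4 at 6 h. Ccl9 had 147 CPM in library 1 at 1 h. Ccl3 had 5.25 CPM in library 3 of the controls, which raises the control mean on which its fold changes rest.

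The effects at 6 h and at 1 h, both set against the same controls, differed in the direct test of 6 h against 1 h for 5 genes. On the log2 scale the differences were 4.52 for Ccl4, 4.45 for Ccl2, 3.9 for Ccl3, 3.08 for Ccl7 and 2.16 for Ccl11, with all 5 libraries at 6 h above all 4 libraries at 1 h in each case.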

How the results depend on the processing

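DESeq2 called 329 entries at 1 h (286 higher and 43 lower), against 126 in edgeR, 1596 at 6 h (1031 and 565), against 798, and 914 between the times (536 and 378), against 406. Leaving out 1 library gave 98 to 123 calls at 1 h, 575 to 752 at 6 h and 228 to 325 between the times, with 228, 263 and 242 without libraries 1, 3 and 4 at 1 h and 257 without library 3 at 6 h. Library totals in place of TMM moved the median of all entries to -0.46 at 6 h and -0.31 between the times, and the split there was 453 higher and 604 lower at 6 h, against 621 and 177, and 171 higher and 239 lower between the times, against 293 and 113. Members called stayed at 3 to 5 at 1 h, 6 to 7 at 6 h and 5 between the times over all alternatives. With 1 library left out, the 1 h value of Ccl8 lay between -0.51 and 0.25, its 6 h value between -0.78 and 0.15 (both upper ends without library 4 of the controls) and its value between the times between -0.47 and 0.14. Of the count ratios, Ccl2/Ccl7 at 1 h ranged from -0.18 to 0.36, and between the times Ccl12/Ccl8 ranged from -0.26 to 0.43 and Ccl6/Ccl9 from -0.68 to 0.01. The cause of these changes was not tested. No paired analysis was possible because the columns carry no number that ties a library to a numbered animal. Among the 9 genes, Ccl3 had the fewest counts in any group, 61 over the controls.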
